A study of Mus musculus with 12 samples.

Results

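The 10 genes described here, 1500009L16Rik, Prl3b1, Ube2u, Creg1, Arhgdig, Pla2g10, Rflnb, Pecam1, Cmtm7 and 4933430I17Rik, were picked by name because their mRNA was strongly lower in mouse embryos depleted of Nr5a2. They are 10 of the 55401 genes counted, and all 10 were among the 14830 genes that passed the filter on low counts. RNA-seq was performed on 12 libraries of pooled 8-cell embryos in 4 groups, with 2 libraries of control embryos, 3 each of Nr5a2 and Klf5 knockdown (KD) and 4 of the double knockdown (dKD). All embryos came from B6129F1 females, 3 to 5 weeks old, mated to B6CBAF1 males. Zygotes at 8 to 9 h post fertilization (hpf) received siRNA against Nr5a2 at 5 µM, siRNA against Klf5 at 10 µM, both siRNAs (concentrations not given), or control siRNA at 15 µM. H2B-EGFP mRNA at 150 ng/µl was injected with the siRNA in every group, controls included. A library pooled 10 embryos, so single embryos and single blastomeres are not resolved, and an siRNA lowers a transcript without removing the gene.

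NR5A2 is an orphan nuclear receptor that binds DNA as a monomer at AGGTCA-type sequences extended on the 5′ side. It is known for its role in early embryonic development and in pluripotent cells, and in the adult for bile acid and steroid metabolism. KLF5 is a zinc-finger factor that binds GC-rich and CACCC-type boxes and is known for its role in the trophectoderm and in embryonic stem cells. At the 8-cell stage the blastomeres approach the segregation of the trophectoderm, which forms placenta, from the inner cell mass, which forms the fetus.

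The choice of the 10 genes rests on their levels in the libraries with Nr5a2 siRNA, so their decrease is given below as a description without a test. It was not a list of the 10 largest decreases. Of 529 genes called lower in Nr5a2 KD (adjusted p under 0.05 by edgeR and at least a 2-fold change, 3.57% of the genes tested), Ube2u ranked 24 and Cmtm7 ranked 275 by log2 fold change. Among the 349 of these whose control level was at least that of the lowest of the 10 genes (16.7 CPM, counts scaled to the TMM-adjusted library total), Ube2u ranked 1 and Cmtm7 ranked 123, and 2 of the 10 lowest were Ube2u and 4933430I17Rik. The choice gave no threshold, so no gene lies just inside or outside it. Tests were made of Klf5 KD against control, of dKD against Nr5a2 KD and of the interaction of both knockdowns. The control libraries entered the choice, and the Klf5 KD libraries may have entered it as libraries without Nr5a2 siRNA, so these tests are not fully independent of it. The comparisons of Nr5a2 KD, Klf5 KD and dKD with control share the same 2 control libraries. The labels do not say that the libraries of a group came from separate collections of embryos, so p-values measure the spread between libraries, which may be technical.

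All 10 genes are annotated as protein coding on GRCm38 and lie on 8 chromosomes. Prl3b1 is on chromosome 13 (27241847 to 27249683), Pla2g10 on chromosome 16 (13715057 to 13730983), Creg1 on chromosome 1 (165763746 to 165775308), Arhgdig on chromosome 17 (26199183 to 26207786), Cmtm7 on chromosome 9 (114756836 to 114781856) and 1500009L16Rik on chromosome 10 (83722865 to 83762762). Ube2u (100478849 to 100550147) and 4933430I17Rik (62525369 to 62547993) share chromosome 4 at a distance of 37.9 Mb, and Rflnb (76019194 to 76027782) and Pecam1 (106654217 to 106750628) share chromosome 11 at 30.6 Mb.

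Promoter sequences from 250 bases before to 50 bases after the start were taken from RefSeq (GRCm38.p6) for 8 of the 10 genes. The core letters AGGTCA were searched on both strands and occurred in 2 of the 8 genes, Prl3b1 and Cmtm7, and in 16% of 27025 promoters of the same length. The extended letters AAGGTCA, which contain the core, occurred in Prl3b1 alone and in 4.66% of all promoters. Other forms of the NR5A2 site were searched after the data had been seen. AAGGCCA occurred in Ube2u alone (-154 to -148 from the start, minus strand) and in 6.05% of all promoters, and the longer TCAAGGCCA in 0 of the 8 genes and in 0.592%. Prl3b1 and Cmtm7 are shown for their matches to AGGTCA and AAGGTCA, with every such match in capitals (all on the minus strand, so the capitals spell the reverse complement). The Prl3b1 sequence is chr13:27242180-27242479 on the plus strand and the Cmtm7 sequence is chr9:114781944-114782243 on the minus strand.
Prl3b1: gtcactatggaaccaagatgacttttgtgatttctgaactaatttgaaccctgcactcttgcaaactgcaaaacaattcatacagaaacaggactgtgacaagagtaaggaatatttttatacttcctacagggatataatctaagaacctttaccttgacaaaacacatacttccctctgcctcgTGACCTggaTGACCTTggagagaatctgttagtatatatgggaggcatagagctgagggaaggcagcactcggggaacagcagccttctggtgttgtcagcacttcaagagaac
Cmtm7: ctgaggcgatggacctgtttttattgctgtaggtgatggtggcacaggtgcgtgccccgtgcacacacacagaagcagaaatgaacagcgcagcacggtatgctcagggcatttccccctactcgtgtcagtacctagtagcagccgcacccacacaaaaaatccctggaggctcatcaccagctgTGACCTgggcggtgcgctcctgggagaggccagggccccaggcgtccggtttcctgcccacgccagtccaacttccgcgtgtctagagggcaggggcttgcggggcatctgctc
In Prl3b1 the matches lay at -64 to -59 and, with the extension, at -55 to -49 from the start, separated by 3 bases. In Cmtm7 the match lay at -64 to -59. The annotation used for counting starts Prl3b1 upstream of this window and Cmtm7 downstream of it, so the distances hold for the RefSeq start only. A match is a description of the letters and does not show binding.

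The letters GGGCGG, a GC-type box of the KLF family, occurred in 6 of the 8 genes (1500009L16Rik, Creg1, Pla2g10, Rflnb, Cmtm7 and 4933430I17Rik) and in 35.9% of all promoters. The latter share reads 1 promoter a gene, while 4933430I17Rik has 2 and its matches lie in the other one, so on the same basis 5 of the 8 genes held the letters. CCACCC occurred in 3 genes (1500009L16Rik, Ube2u and Pla2g10) and in 30.9% of all promoters, and in 2 of the 8 genes, without 1500009L16Rik, when only the 250 bases before the start were read. Pla2g10 and Rflnb are shown because their log2 fold changes in Klf5 KD (below) were the highest of the 10 genes, although neither was called. With the mitochondrial share as a covariate that of Ube2u was the highest. GGGCGG and CCACCC are in capitals on either strand. GGGCGG also occurred in Cmtm7 and 1500009L16Rik, whose log2 fold changes in Klf5 KD were -0.54 and -0.0069. A link between these letters and the levels in Klf5 KD was not tested. The Pla2g10 sequence is chr16:13730435-13730734 and the Rflnb sequence is chr11:76027733-76028032, both on the minus strand.
Pla2g10: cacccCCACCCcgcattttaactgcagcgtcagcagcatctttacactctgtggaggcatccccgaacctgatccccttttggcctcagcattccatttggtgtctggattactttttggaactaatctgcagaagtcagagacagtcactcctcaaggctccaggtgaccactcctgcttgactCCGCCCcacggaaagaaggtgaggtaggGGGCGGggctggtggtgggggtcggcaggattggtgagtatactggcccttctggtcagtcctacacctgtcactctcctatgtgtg
Rflnb: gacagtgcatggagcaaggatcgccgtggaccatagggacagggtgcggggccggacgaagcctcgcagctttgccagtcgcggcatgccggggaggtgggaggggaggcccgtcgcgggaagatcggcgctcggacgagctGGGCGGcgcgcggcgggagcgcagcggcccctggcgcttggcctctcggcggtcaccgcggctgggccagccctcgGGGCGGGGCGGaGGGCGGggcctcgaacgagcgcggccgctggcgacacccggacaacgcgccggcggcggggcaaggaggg
Rflnb held 4 matches to GGGCGG, of which those at -32 to -27 and -27 to -22 overlap by a base, in a promoter of 77.0% GC against a median of 52.7% over all promoters. Pla2g10 held 2 matches to GGGCGG and 1 to CCACCC, in a window that lies downstream of the gene start used for counting. The letters AGATAA, bound by factors of the GATA family, were found only in Creg1 among the 8 and in 11.4% of all promoters, and TATAAA only in Prl3b1 and in 14.2%.

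The libraries held 6676683 to 12560926 counts on genes. Mitochondrial genes took 12.9 and 13.2% of these in control. Their share was 4.41 to 11.8% in Klf5 KD, 6.18 to 12.5% in Nr5a2 KD and 6.17 to 12.8% in dKD. The sum over 17 genes of the 8-cell embryo was 18788 to 32603 CPM in the 12 libraries, against 11.5 to 22.8 CPM over 13 cumulus and granulosa genes and 8.30 to 30.2 CPM over 12 endothelial and blood genes. Dppa3 (mean of 15777 CPM in control) and Dppa5a (3819 CPM) made up most of the 8-cell sum. Other genes of that list were low in control, such as Pou5f1 (11.9 CPM), Cdx2 (0.620 CPM) and Eomes (0.0378 CPM). The 8-cell sum therefore does not show each of its genes as high. Ptx3, Inhba and Lhcgr of the cumulus list and Emcn, Ptprc and Hbb-bs of the blood list were at 0 in every library. Amhr2 of the cumulus list was detected, at means of 13.4 CPM in control, 10.1 in Nr5a2 KD, 17.4 in Klf5 KD and 12.2 in dKD. It made up most of the cumulus sum, and Kitl (2.24 CPM in control) and Foxl2 (1.30 CPM) also passed the filter. Nr5a2 was at 225 and 210 CPM in control, 32.8, 38.8 and 24.1 in Nr5a2 KD, 117, 255 and 203 in Klf5 KD, and 28.5, 31.1, 33.8 and 25.2 in dKD. Its log2 fold change was -2.77 (SE 0.300, adjusted p = 0.000188 by edgeR) in Nr5a2 KD and -2.87 (SE 0.273, adjusted p = 4.27e-05 by edgeR) in dKD. Klf5 was at 444 and 466 CPM in control, 72.7, 117 and 144 in Klf5 KD, and 82.0, 59.8, 42.2 and 39.9 in dKD. Klf5 was also low in Nr5a2 KD, at 150, 158 and 109 CPM or 30.6% of control (log2 fold change -1.71, SE 0.321, adjusted p = 0.00466 by edgeR), a call that was lost under ERCC scaling (-0.96, adjusted p = 0.101 by edgeR). The Klf5 siRNA lowered Klf5 to 24.5% of control (log2 fold change -2.03, SE 0.323, adjusted p = 0.0412 by edgeR). The latter call was also lost under ERCC scaling (-1.43, adjusted p = 0.318 by edgeR), without either control library (adjusted p = 0.211 and 0.264 by edgeR) and without any of 4 other libraries (Klf5 KD and Nr5a2 KD replicates 1 and 2), over a range of 0.0234 to 0.264 by edgeR with each library left out. A fit of the Klf5 KD and control libraries only and a block for replicate number lost it too. Of 15 genes tested on the 8-cell list edgeR called 7 in Nr5a2 KD (4 of them lower) and 3 in dKD (2 of them lower), against a background in either direction of 5.89 and 6.99% of genes. Klf5 and Klf4 were lower in both, and Utf1 was higher in both (log2 fold changes 1.48 and 1.41, lost without either control library). Of 4 blood and endothelial genes tested Hba-a1 was called higher in dKD (log2 fold change 1.99, SE 0.519, adjusted p = 0.0264 by edgeR, lost without either control library). Of 3 cumulus genes tested 0 were called and 0 had an unadjusted p under 0.05 in either comparison by edgeR, and DESeq2 called 0.

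In control embryos the 10 genes ranged widely in level per length of exon, which is the scale for comparing genes. Prl3b1 was the highest at 108 ± 31.7 CPM per kb (SD, n = 2), above 95.3% of the tested genes. Arhgdig at 47.4 ± 0.261 and Cmtm7 at 45.7 ± 3.65 CPM per kb (SD, n = 2) did not differ beyond their spread. Rflnb followed at 32.1 ± 5.15 CPM per kb (SD, n = 2). 4933430I17Rik (20.3 ± 7.03), 1500009L16Rik (16.7 ± 1.11), Ube2u (16.1 ± 4.00) and Creg1 (14.6 ± 2.41) formed a run of CPM per kb values (SD, n = 2) in which neighbours in the order did not differ beyond their spread. Pla2g10 was at 11.1 ± 0.240 and Pecam1 at 3.50 ± 0.0362 CPM per kb (SD, n = 2), the latter close to the median of all tested genes (2.41). In Nr5a2 KD and dKD all genes but Prl3b1, Arhgdig, Cmtm7 and Rflnb were below that control median of all genes.

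**Figure D1:**
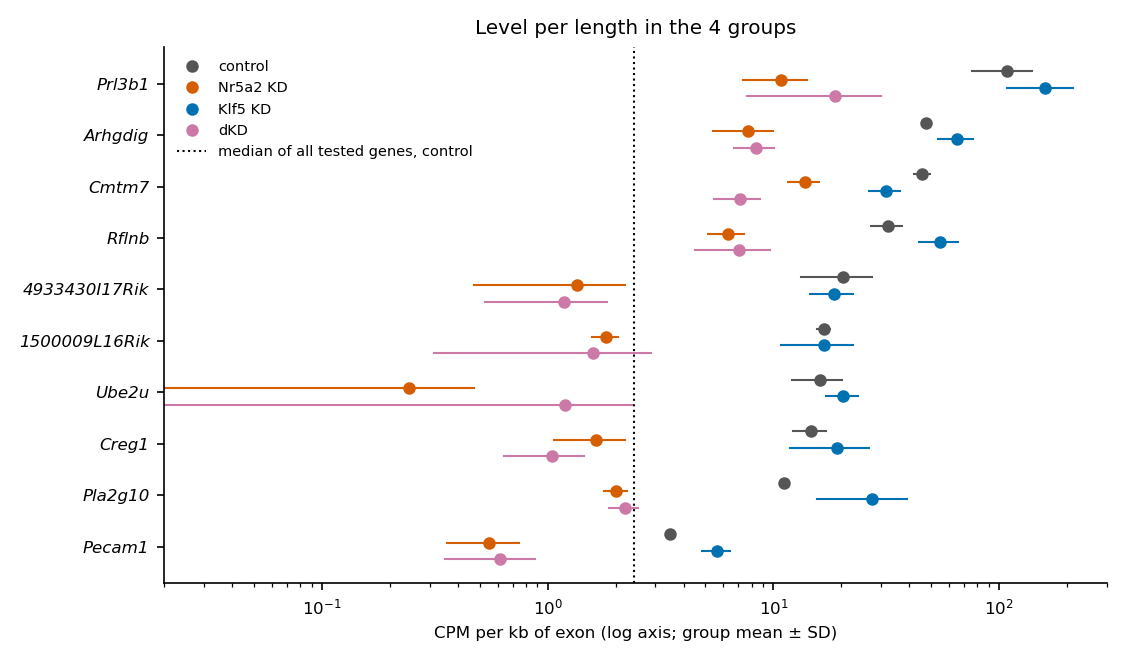
Group mean ± SD of the level per length of exon (x axis, CPM per kb, log scale) of the 10 genes (y axis, ordered by their control level) in the 4 groups, marked by colour. The dotted line is the control median of all tested genes, 2.41. The lower SD bars of Ube2u in Nr5a2 KD and dKD reach the edge of the axis. Control and Klf5 KD means lie to the right of the Nr5a2 KD and dKD means for every gene.

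Every one of the 7 libraries with Nr5a2 siRNA was below each of the 5 libraries without it for all 10 genes, as was so for 6.83% of all tested genes, a pattern that the choice of the 10 largely fixes. The gap between the nearest libraries was narrowest for Cmtm7, at 1.58-fold, and widest for 4933430I17Rik, at 6.66-fold. Group means in Nr5a2 KD were 1.51 to 30.1% of control with a median of 13.5%, and in dKD 5.80 to 22.0% with a median of 16.5%. Ube2u (log2 fold change -5.97, SE 0.737), 4933430I17Rik (-3.91, SE 0.516) and Prl3b1 (-3.32, SE 0.468) were the furthest below control in Nr5a2 KD, and Cmtm7 (-1.73, SE 0.259) the least. The place of Prl3b1 rested on single libraries. With each left out it ran from -3.60 to -2.99, and 1500009L16Rik from -3.31 to -3.08. With single libraries left out Ube2u ranged from -6.81, without Nr5a2 KD replicate 1, to -5.40, without Nr5a2 KD replicate 3. In dKD the values ran from -4.10 (SE 0.469) for 4933430I17Rik to -2.18 for Rflnb, with Ube2u at -3.74. The gene with the lowest value in dKD rested on single libraries, since without dKD replicate 1 it was Ube2u (-4.72, against -4.55 for 4933430I17Rik) and without dKD replicate 2 it was 1500009L16Rik (-4.13). Median log2 fold changes of the 10 were -2.90 in Nr5a2 KD and -2.61 in dKD, against 0.02 over all genes in both. Under ERCC scaling, which moved the median of all genes to 0.82 in Nr5a2 KD, Cmtm7 was at -0.95 there. In pooled embryos, fewer cells expressing a gene and less RNA per cell cannot be told apart.

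**Figure D2:**
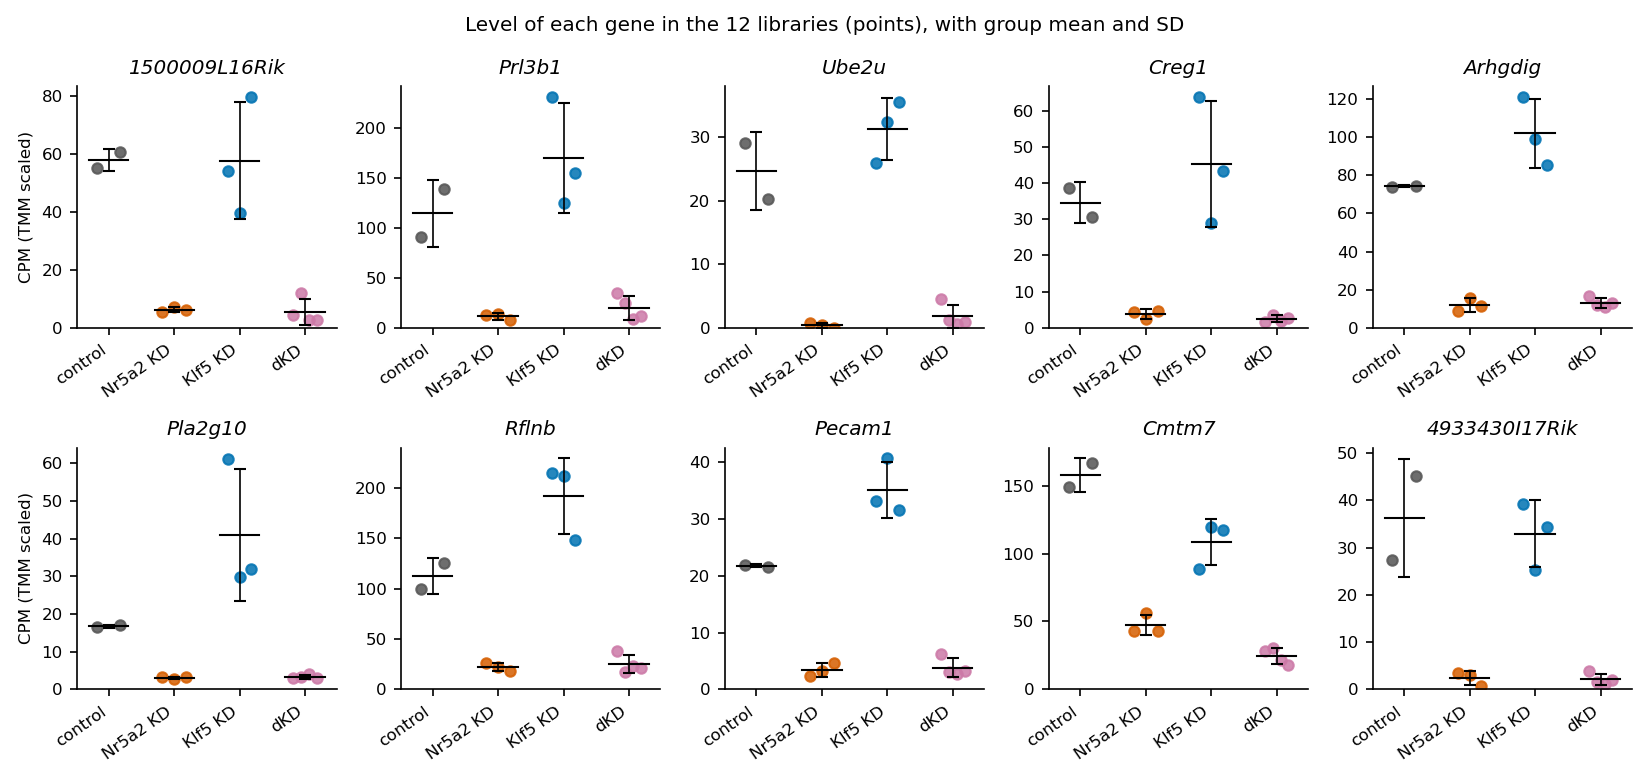
Level of each of the 10 genes in CPM (y axis, linear from 0, a separate scale for each gene) in every library (points) of the 4 groups (x axis). Horizontal lines are group means and error bars are the SD, ended at 0 where it exceeds the mean. Nr5a2 KD and dKD libraries lie at the bottom of every panel, while Klf5 KD means lie above control means for 7 genes. Cmtm7 in Klf5 KD sits at 88.8 to 119 CPM, below both controls at 149 and 167.

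Among the secreted proteins, Prl3b1 encodes placental lactogen II, a hormone of the prolactin family made by trophoblast giant cells of the placenta. It was at 90.9 and 139 CPM in control, 12.7, 14.3 and 7.39 in Nr5a2 KD, 231, 125 and 155 in Klf5 KD, and 34.6, 24.6, 9.07 and 11.8 in dKD. The dKD libraries spread widely, and 2 of them lay above all Nr5a2 KD libraries. Relative to control it was at 9.99% in Nr5a2 KD and 17.4% in dKD. Its promoter, printed above, held the AGGTCA letters at 2 places. Pla2g10 encodes the group X secreted phospholipase A2, which releases fatty acids from phospholipids. It was at 16.5 and 17 CPM in control, 3.18, 2.61 and 3.26 in Nr5a2 KD, 61.2, 29.7 and 31.9 in Klf5 KD, and 3.03, 3.25, 4.01 and 2.94 in dKD. The Nr5a2 KD and dKD values overlapped, and all 3 Klf5 KD libraries were above control. Creg1 encodes a small secreted and lysosomal glycoprotein named as a cellular repressor of E1A-stimulated genes. It was at 38.6 and 30.5 CPM in control, 4.47, 2.34 and 4.76 in Nr5a2 KD, 63.7, 29.0 and 43.2 in Klf5 KD, and 1.64, 3.68, 1.77 and 2.83 in dKD. Klf5 KD overlapped control, and dKD overlapped Nr5a2 KD.

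Among genes that act on the actin cytoskeleton, Arhgdig encodes a GDP dissociation inhibitor, which holds small GTPases inactive. It was at 74.0 and 74.6 CPM in control, 8.76, 15.9 and 11.5 in Nr5a2 KD, 121, 99.2 and 85.3 in Klf5 KD, and 16.8, 12.0, 10.8 and 12.8 in dKD. All Klf5 KD libraries were above control. Arhgdig shares exon bases with Rgs11, a regulator of G-protein signalling on the opposite strand, and the counting did not use strand, so reads of the pair cannot be fully told apart. Rgs11 also had lower counts, with a log2 fold change of -1.66 in Nr5a2 KD (SE 0.253, adjusted p = 0.00134 by edgeR) and -1.32 in dKD (SE 0.234, adjusted p = 0.00264 by edgeR). Rflnb encodes refilin B, a protein that organizes actin bundles. It was at 100.0 and 126 CPM in control, 26.1, 22.1 and 18 in Nr5a2 KD, 215, 212 and 148 in Klf5 KD, and 38.0, 17.7, 23.0 and 20.7 in dKD. Here too all Klf5 KD libraries lay above both controls, and dKD overlapped Nr5a2 KD.

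Membrane proteins were Pecam1 and Cmtm7. Pecam1 encodes CD31, an immunoglobulin-family adhesion molecule of endothelium that is also found on inner cell mass and embryonic stem cells. It was at 21.9 and 21.6 CPM in control, 2.29, 3.30 and 4.70 in Nr5a2 KD, 33.1, 40.7 and 31.5 in Klf5 KD, and 6.24, 3.11, 2.65 and 3.30 in dKD. Its Klf5 KD libraries were above control. Of 12 endothelial and blood genes, Emcn, Ptprc and Hbb-bs were at 0 in every library, while the endothelial genes Tie1 (2.39 CPM in control, 0.920 in Nr5a2 KD and 1.18 in dKD) and Eng (1.84, 0.852 and 1.19 CPM) were detected at low levels with lower means, neither of them called. Of the other genes tested on the list, the endothelial Esam (0.378, 0.541 and 0.742 CPM) and the hemoglobin gene Hba-a1 (4.97, 12.9 and 19.6 CPM) had higher means in the same groups, and the part of these genes in the Pecam1 values was not tested. Cmtm7 encodes a MARVEL-domain transmembrane protein of the chemokine-like factor family. It was at 149 and 167 CPM in control, 43.0, 56.2 and 43.2 in Nr5a2 KD, 88.8, 119 and 117 in Klf5 KD, and 28.0, 30.3, 21.9 and 17.9 in dKD. Cmtm7 was the only one of the 10 genes with its groups in the order control, Klf5 KD, Nr5a2 KD and dKD without overlap, as was so for 9 of all tested genes (0.0607%), an order that the choice of the 10 fixes in part. It shares exon bases with Gm9888 on the opposite strand, a gene that was lower in Nr5a2 KD (log2 fold change -1.32, SE 0.371, adjusted p = 0.0421 by edgeR) and in dKD (log2 fold change -2.68, SE 0.354, adjusted p = 0.000415 by edgeR). Gm9888 was also at -0.71 (SE 0.368) in Klf5 KD and at -1.37 (SE 0.332) in dKD against Nr5a2 KD, called in neither, and reads of the pair cannot be fully told apart in these comparisons either.

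Ube2u encodes an E2 enzyme, which carries ubiquitin to its targets. It was at 29.0 and 20.3 CPM in control, 0.706, 0.412 and 0 in Nr5a2 KD, 25.9, 32.4 and 35.6 in Klf5 KD, and 4.54, 1.27, 0.589 and 0.942 in dKD. The Nr5a2 KD libraries held 6, 3 and 0 counts, and 0 counts in replicate 3 allows up to 0.376 CPM (3 counts, counting error only). It was the gene closest to absence, at 1.51% of control in Nr5a2 KD, and dKD replicate 1 with 36 counts stood above the other dKD libraries (5 to 9 counts).

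The role of the remaining genes is less settled. 1500009L16Rik, for which RefSeq lists the synonym OCC-1, was at 55.2 and 60.6 CPM in control, 5.53, 7.15 and 6.14 in Nr5a2 KD, 54.0, 39.6 and 79.5 in Klf5 KD, and 4.29, 12.0, 2.83 and 2.83 in dKD. Klf5 KD surrounded control on both sides. 4933430I17Rik was at 27.4 and 45.1 CPM in control, 3.53, 3.02 and 0.626 in Nr5a2 KD, 39.3, 25.2 and 34.3 in Klf5 KD, and 3.78, 1.56, 1.18 and 1.88 in dKD. Klf5 KD lay within the range of control but for 1 library, and dKD overlapped Nr5a2 KD.

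Dependence on Klf5 was tested first where the Nr5a2 siRNA was absent. Of the 10 genes, 0 were called in Klf5 KD against control, where edgeR called 6 of 14830 genes (0.0405%, all lower) and 1245 genes (8.40%) had an unadjusted p under 0.05, 2 of the 10 among them. DESeq2 also called 0 of the 10. The log2 fold change was above 0 for 7 genes and below 0 for 3, with a median of 0.42 against -0.0047 over all genes. Scaling to the ERCC spike-in RNA moved the median of all genes to 0.65 and that of the 10 genes to 1.12, with all 10 above 0. The 95% interval left out a 2-fold decrease for 8 genes, all but Cmtm7 and 4933430I17Rik, and lay within 2-fold either way only for 1500009L16Rik (-0.96 to 0.95). Klf5 KD means were 68.7 to 245% of control with a median of 134%.

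The highest ratio was that of Pla2g10, at 245% of control with a log2 fold change of 1.29 (SE 0.339, 95% interval 0.57 to 2.01, adjusted p = 0.290 by edgeR). Without Klf5 KD replicate 1 it was 0.89. Rflnb had a log2 fold change of 0.77 (95% interval 0.11 to 1.42, adjusted p = 0.534 by edgeR). The remaining positive values were 0.69 for Pecam1, 0.57 for Prl3b1, 0.46 for Arhgdig, 0.39 for Creg1 and 0.34 for Ube2u, each with a 95% interval that held 0. With each library left out they ran from 0.62 to 0.82, 0.29 to 0.90, 0.32 to 0.64, 0.07 to 0.69 and 0.11 to 0.63 in that order. Every Klf5 KD library was above both controls for 4 genes (Arhgdig, Pla2g10, Rflnb and Pecam1), as was so for 12.1% of all tested genes. Cmtm7 alone had all Klf5 KD libraries below control, as did 14.2% of genes, with a log2 fold change of -0.54 (95% interval -1.09 to 0.0033, adjusted p = 0.594 by edgeR). Klf5 KD replicate 1, which had the lowest mitochondrial share (4.41%) and the most counts, was the highest Klf5 KD library for 6 of the 10 genes, and without it the value of Cmtm7 was -0.41. With the mitochondrial share as a covariate, the log2 fold change of Pla2g10 was 0.88 and that of Cmtm7 was -0.21, while that of Ube2u rose to 1.21, the highest of the 10 (adjusted p = 0.594 by edgeR, over a range of 0.381 to 0.913 across the alternatives). Under ERCC scaling Cmtm7 was at 0.11.

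**Figure D3:**
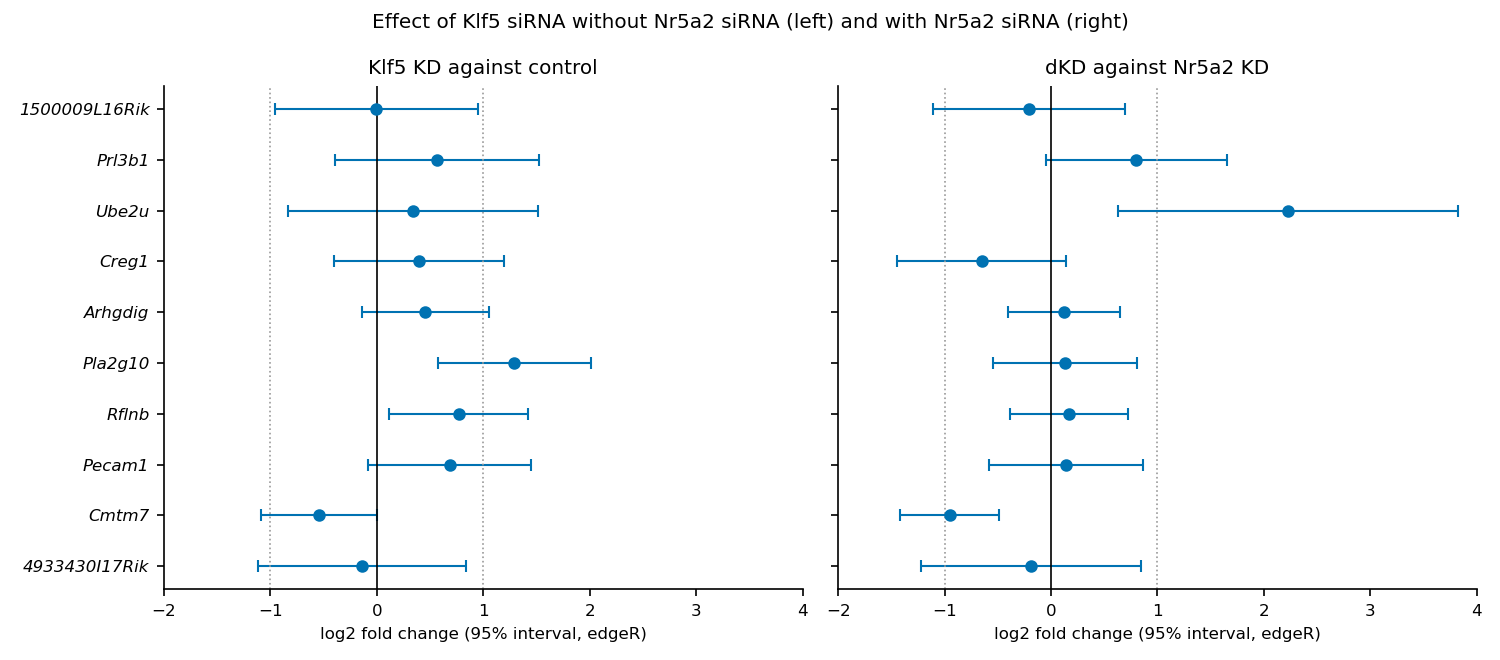
Log2 fold change (x axis) with its 95% interval from edgeR for the 10 genes (y axis) in Klf5 KD against control (left) and dKD against Nr5a2 KD (right). Solid lines mark no change and dotted lines a 2-fold change. Most intervals cross 0, apart from Pla2g10 and Rflnb on the left and Ube2u and Cmtm7 on the right, and none of these values passed an adjusted p of 0.05.

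Dependence on Klf5 was tested next in embryos that also received Nr5a2 siRNA, whose Klf5 mRNA was already low. In dKD against Nr5a2 KD edgeR called 0 of 14830 genes (0%), and 513 genes (3.46%) had an unadjusted p under 0.05, among them Cmtm7 and Ube2u. DESeq2 called 1 gene, Klf5 itself, for which edgeR gave -1.31 (SE 0.273, adjusted p = 0.705). The median log2 fold change of the 10 genes was 0.13 against 0.01 over all genes, and it turned to -0.11 without dKD replicate 1. For Arhgdig, Pla2g10, Rflnb and Pecam1 the 95% interval lay within 2-fold either way, from -0.58 at the lowest bound to 0.86 at the highest.

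Cmtm7 was lower in dKD than in Nr5a2 KD by a log2 fold change of -0.95 (SE 0.221, 95% interval -1.42 to -0.48, unadjusted p = 0.000505 and adjusted p = 0.705 by edgeR). All 4 dKD libraries were below all 3 Nr5a2 KD libraries, as was so for 2.54% of tested genes, and leaving out single libraries gave -1.07 to -0.81. It was the only one of the 10 whose libraries with Klf5 siRNA all lay below the compared group in both comparisons, as did 0.593% of tested genes, and it passed the adjusted threshold in neither. Ube2u had a log2 fold change of 2.23 (SE 0.755, 95% interval 0.63 to 3.83, adjusted p = 1 by edgeR). Without dKD replicate 1 it was 1.25, and it was called only when no filter on low counts was used (adjusted p = 0.0411 by edgeR, over a range of 0.0411 to 1 across the alternatives). Prl3b1 had 0.80 (95% interval -0.05 to 1.65) and Creg1 -0.65 (95% interval -1.44 to 0.14), both with an adjusted p of 1 by edgeR. With each library left out Prl3b1 ran from 0.39 to 1.04 and Creg1 from -0.90 to -0.48.

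The interaction asks whether the effect of both siRNAs differed from the sum of their single effects on the log scale. It was called for 0 of 14830 genes (0%) by edgeR, with 715 genes (4.82%) at an unadjusted p under 0.05, and by DESeq2 for 3 genes, 0 of the 10 among them. The values of the 10 genes were negative for 8 and positive for 2. Pla2g10 had the lowest, -1.16 (SE 0.461, 95% interval -2.13 to -0.19, unadjusted p = 0.0223 and adjusted p = 0.950 by edgeR), which sets its higher level in Klf5 KD against its low levels in Nr5a2 KD and dKD. The value of Pla2g10 was -0.74 without Klf5 KD replicate 1. With the mitochondrial covariate it was -0.76, and another of the 10 genes was the lowest (-0.87). Ube2u had the highest, 1.89 (95% interval -0.09 to 3.87, adjusted p = 0.950 by edgeR). It was 0.91 without dKD replicate 1, 2.72 without Nr5a2 KD replicate 1 and 0.96 with the mitochondrial covariate. The intervals of the others all held 0, and none of the 10 lay within 2-fold either way, so these libraries leave room for interactions of that size.

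Libraries of a group differed among themselves by gene. In dKD, replicate 1 was the highest library for 6 of the 10 genes (Prl3b1, Ube2u, Arhgdig, Rflnb, Pecam1 and 4933430I17Rik), at 1.41-fold the mean of the other dKD libraries for Arhgdig and 4.86-fold for Ube2u. Its Nr5a2 level (28.5 CPM) lay within the range of the other dKD libraries, while its Klf5 level (82.0 CPM) was the highest of the dKD. Its mitochondrial share, 12.8%, was close to that of replicate 2, while replicates 3 and 4 were at 6.75 and 6.17%. Summed over the 10 genes, dKD libraries were at 141, 109, 77.7 and 78.0 CPM, Nr5a2 KD libraries at 110, 127 and 99.5, control at 603 and 701 and Klf5 KD at 933, 752 and 762. The part of the mitochondrial share in these sums was not tested.

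The nearest tested gene on each side within 500 kb gave 17 neighbours, which the choice of the 10 genes did not use. Genes that overlap one of the 10 are not among them, and Rgs11 and Gm9888, which do and share exon bases with Arhgdig and Cmtm7, were both called lower (above). In Nr5a2 KD against control 0 of the 17 were called by edgeR and by DESeq2 and 3 had an unadjusted p under 0.05, against backgrounds of 5.89% called in either direction and 20.8% at that p, with a median log2 fold change of -0.19 and a range from -1.66 to 1.34. Pole3, an accessory subunit of DNA polymerase epsilon that lies 301 bases from 4933430I17Rik, was at 112 CPM in control, 126 in Nr5a2 KD (log2 fold change 0.18, SE 0.302) and 112 in dKD (0.01, SE 0.286). Milr1, an inhibitory receptor of mast cells 598 bases from Pecam1, had 0.05 (SE 0.301) in Nr5a2 KD and 0.69 (SE 0.292) in dKD. Axin1 and Fam234a flank Arhgdig at 3372 and 4036 bases and had -0.78 (SE 0.363) and -0.36 (SE 0.241) in Nr5a2 KD. Cmtm6, a gene of the same family 7492 bases from Cmtm7, had -0.13 (SE 0.430) in Nr5a2 KD and -0.54 (SE 0.405) in dKD, where Cmtm7 itself had -1.73 (SE 0.259) and -2.69 (SE 0.241). Gpd1l, on the far side of Cmtm7, fell by less than 2-fold in Nr5a2 KD (-0.83, SE 0.205, adjusted p = 0.0227 by edgeR).

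In dKD against control 1 of the 17 neighbours was called (background 6.99% in either direction) and 7 had an unadjusted p under 0.05, as did 22.9% of all genes, with a median log2 fold change of -0.45. It was 1700016K19Rik, 15625 bases from Rflnb and at 4.18 CPM in control, with -1.86 (SE 0.521, adjusted p = 0.0374 by edgeR), a call that was lost without either control library (0.0708 and 0.397 by edgeR). Vps53, on the other side of Rflnb at 18444 bases, had -0.75 (SE 0.282) in Nr5a2 KD and -0.78 (SE 0.264) in dKD, called in neither. Neighbours of 1500009L16Rik, Ube2u and Creg1 were at 0.276 to 1.13 CPM in control, too few counts for a firm value. Among them Cachd1, beside Ube2u, had -1.54 (SE 1.39) in Nr5a2 KD and -3.03 (SE 1.40) in dKD. Appl2, beside 1500009L16Rik, had 1.34 (SE 1.36) and 1.59 (SE 1.31).

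**Figure D4:**
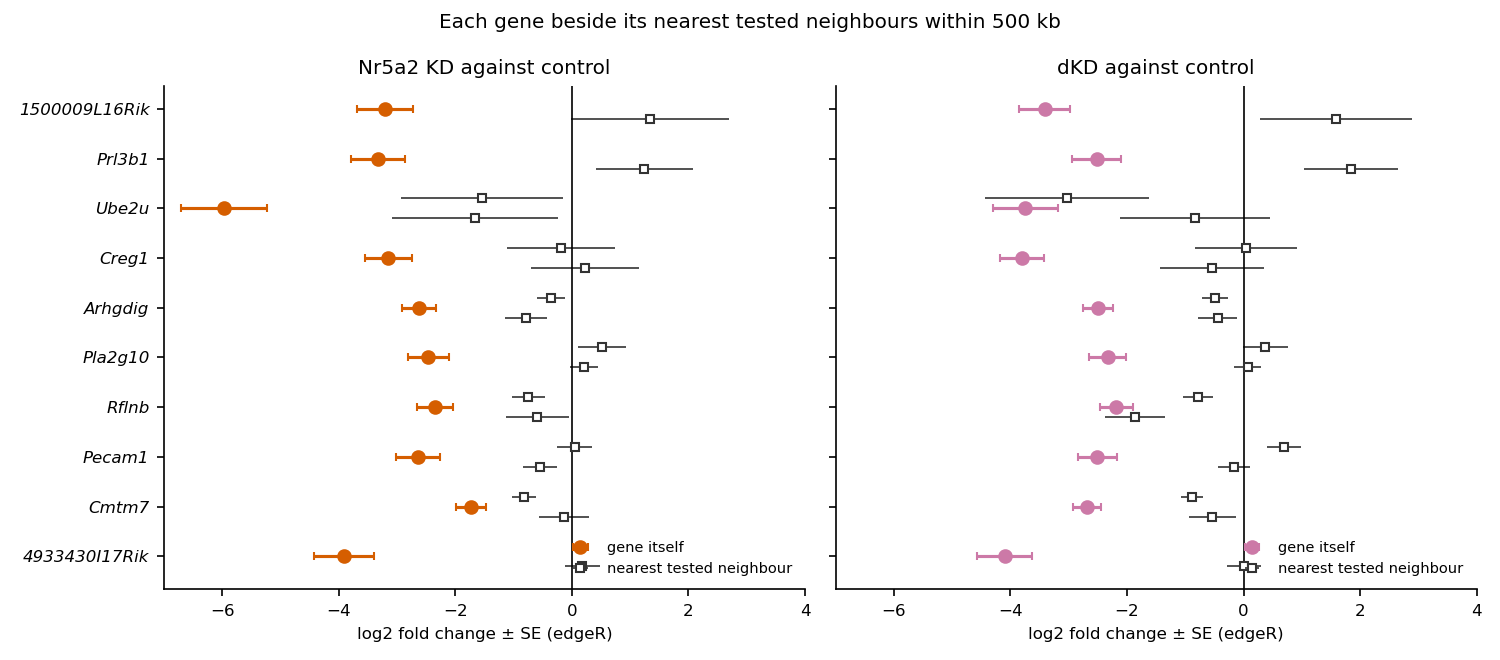
Log2 fold change ± SE from edgeR (x axis) of each of the 10 genes (filled circles) and of its nearest tested neighbour on each side within 500 kb (open squares) in Nr5a2 KD (left) and dKD (right) against control. The circles lie between -5.97 and -1.73 on the left and -4.10 and -2.18 on the right. The squares lie on both sides of 0 in Nr5a2 KD, with a median of -0.19, and those of 1500009L16Rik, Ube2u, Creg1 and Prl3b1 have the widest errors.

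Gene families of the 10 genes were examined next. Of the other 25 prolactin family genes, 17 had no count in any library, 7 more had at most 11 counts and were not tested, and Prl7b1 was tested at 2.36 CPM in control (log2 fold change 1.25 in Nr5a2 KD, SE 0.827, adjusted p = 0.431 by edgeR). Prl3b1 was thus detected in 8-cell embryos at 115 CPM almost alone in its family. Arhgdia, a broadly expressed GDP dissociation inhibitor of the same family as Arhgdig, was at 20.1 CPM in control and had -0.11 (SE 0.300) in Nr5a2 KD, and Arhgdib had 1.70 (SE 0.575, adjusted p = 0.0915 by edgeR), a gene that DESeq2 called higher. Of 3 other secreted phospholipases A2 tested, Pla2g12a was called lower in both comparisons, by -1.01 (SE 0.249, adjusted p = 0.0228 by edgeR) in Nr5a2 KD and -1.38 (SE 0.232, adjusted p = 0.00178 by edgeR) in dKD. The former call held in 2 of 10 alternative settings and was lost without either control library, while the latter held with each library left out and was lost under ERCC scaling (-0.53). Of 33 other E2 genes tested, 1 was called in Nr5a2 KD (Ube2w, -1.04, SE 0.292, adjusted p = 0.0424 by edgeR, lost without either control library) and 0 in dKD, where DESeq2 also called 0 and 6 genes had an unadjusted p under 0.05. Over all tested genes edgeR called 5.89% in either direction in Nr5a2 KD and 6.99% in dKD, and 22.9% had an unadjusted p under 0.05 in dKD. The median of these E2 genes was 0.09 in Nr5a2 KD against 0.02 over all genes.

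Of 4 other CMTM genes tested, 0 were called by edgeR in either comparison, 2 had an unadjusted p under 0.05 in each, and DESeq2 called 1 in Nr5a2 KD and 0 in dKD. Backgrounds over all tested genes, here and for the adhesion receptors, were 5.89 and 6.99% called by edgeR in either direction. At that unadjusted p they were 20.8 and 22.9%. Rflna, the other refilin gene, had at most 5 counts and was not tested. Creg2 was not tested. Of 17 other adhesion receptors tested, Epcam was called higher in both comparisons, by 1.34 (SE 0.280, adjusted p = 0.00888 by edgeR) and 1.20 (SE 0.269, adjusted p = 0.0113 by edgeR), and Cd9 was called lower in dKD (-1.58, SE 0.329, adjusted p = 0.00698 by edgeR). These calls were lost without either control library.

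Prl3b1 and Pecam1 also belong to lists of trophoblast and inner cell mass genes. Of 7 other trophoblast genes tested, 3 were called lower in Nr5a2 KD (Hand1, Tead4 and Tfap2c) and 2 higher (Krt8 and Krt18). Over all tested genes 5.89% were called in either direction in Nr5a2 KD (3.57% lower) and 6.99% in dKD. These shares are the background for the trophoblast, inner cell mass and oocyte lists. Hand1, a transcription factor of trophoblast giant cells, had -2.75 (SE 0.653, adjusted p = 0.0183 by edgeR) in Nr5a2 KD and was the only one called in dKD, at -2.85 (SE 0.597, adjusted p = 0.00722 by edgeR, and 0.0658 without control replicate 2). Krt18 and Krt8, keratins of the trophectoderm, had 2.66 (SE 0.745) and 2.19 (SE 0.613) in Nr5a2 KD. The Nr5a2 KD calls of these 5 genes were lost with control replicate 1 left out. Those of Hand1, Tfap2c, Krt8 and Krt18 were also lost with a block for replicate number, and that of Tfap2c held in 2 of 10 alternative settings. Of 15 other inner cell mass genes tested, 2 were called lower in Nr5a2 KD and 4 in dKD, with Tdgf1 and Klf4 in both. Tdgf1, the NODAL co-receptor Cripto, had -4.36 (SE 0.658, adjusted p = 0.00125 by edgeR) and -4.30 (SE 0.588, adjusted p = 0.000512 by edgeR), and stayed called with each library left out. Klf4, a pluripotency factor, had -2.15 (SE 0.401) and -1.80 (SE 0.367), lost without control replicate 2 (adjusted p = 0.0657 and 0.108 by edgeR). Esrrb and Spp1 were called higher in Nr5a2 KD and Spp1 in dKD, all lost without either control library. Of 14 oocyte genes tested, Khdc3 was called lower in both comparisons (-2.57, SE 0.357, and -3.28, SE 0.332), and the summed level of the oocyte list was 266 and 279 CPM in control libraries. The sum was 234 to 290 CPM in Klf5 KD, 159 to 186 in Nr5a2 KD and 96.4 to 190 in dKD. Khdc3 alone was at 98.0 CPM in control, 142 in Klf5 KD, 16.4 in Nr5a2 KD and 10.1 in dKD, so it made up much of the difference in the sums. The part of these sums in the values of the 10 genes was not tested.

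Other genes with a pattern like that of the 10 were ranked by Pearson's r with the mean standardized log2 CPM of the 10 over the 12 libraries. The r values share the same libraries and group differences and carry no p. Fdx1, a ferredoxin that passes electrons to mitochondrial cytochrome P450 enzymes, was the nearest (r = 0.993). Control embryos held 75.8 ± 9.66 CPM (SD, n = 2) and Klf5 KD embryos 104 ± 31.4 (SD, n = 3). With Nr5a2 siRNA it was at 9.47 ± 1.55 CPM (SD, n = 3) alone and 10.2 ± 3.15 (SD, n = 4) in dKD. Tmem192, a lysosomal membrane protein, followed (r = 0.991) at 241 CPM in control, 245 in Klf5 KD, 83.8 in Nr5a2 KD and 76.2 in dKD. Bmp7, a secreted ligand of the BMP family (r = 0.988), was at 1.78 and 2.37 CPM in control and Klf5 KD and at 0 in all 7 libraries with Nr5a2 siRNA, where 3 counts in a library correspond to 0.353 to 0.424 CPM. Gm35288 (r = 0.988) and Ramp1, a receptor activity-modifying protein (r = 0.984), completed the nearest 5. Nr5a2 had r = 0.956 with the same mean, and Klf5 had 0.543. The choice of the 10 genes by the libraries with Nr5a2 siRNA largely fixes the former. The Klf5 siRNA itself lowered Klf5 in Klf5 KD, which bears on the latter. Dependence on either gene cannot be read from these values.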

How the data were processed

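RNA-seq libraries were made from pooled 8-cell embryos with SMART-seq v4 and Nextera XT, with ERCC spike-in RNA added at lysis, and sequenced as pairs on an Illumina NovaSeq per the study's methods, while the labels name a further platform without tying it to libraries. The authors trimmed reads with Trim Galore 0.6.2, aligned them to GRCm38 with STAR and counted pairs per gene with featureCounts 2.0.1, and the labels also name DESeq2. The deposited values are estimated counts, in which a pair over several genes counted as a fraction and strand was not used, so overlapping genes can share reads. Between 7.30 and 8.66% of values were not whole and all were rounded.

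Counts of 12 libraries were fitted together in edgeR 4.0.16 (R 4.3.3) with TMM scaling, filterByExpr (minimum count 10, total 15) and the quasi-likelihood test, with Benjamini-Hochberg adjustment over 14830 genes. One fit was used because the filter within dKD and Nr5a2 KD alone drops Ube2u. A call needed an adjusted p under 0.05 and a 2-fold change. CPM were scaled by TMM. Intervals are at 95% and, with the limit of 3 counts for a count of 0, cover counting error and the spread of libraries only, since PCR reads carry no molecular identifiers.

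The 10 genes and the gene lists were chosen with earlier results of these data known. Other genes are named by rule: Nr5a2 and Klf5, up to 3 genes of a list called in Nr5a2 KD or dKD by largest change, the nearest tested gene on each side within 500 kb, and the 5 genes with the highest r to the mean of the 10. Rgs11 and Gm9888 were named for their overlap with a listed gene, and Arhgdia, Arhgdib, Esrrb, Tead4, Tfap2c and other list genes without the largest change were named after their values were seen. Alternatives were DESeq2 1.42.0, its size factors, total counts, ERCC scaling, no filter, a mean of at least 50, own groups only, unrounded values, a mitochondrial covariate, a replicate block and each library left out. Same-numbered libraries of Nr5a2 KD and dKD deviated together (r = 0.13, 0.221 and 0.254), and no other pair of groups did so for every number. This was taken as pairing by the data, not by the labels. Libraries of unlike number correlated about as much. Nr5a2 KD replicate 3 had 0.264 with dKD replicate 4. Klf5 KD replicate 1 had 0.187 with Nr5a2 KD replicate 3, 0.18 with dKD replicate 3 and 0.197 with dKD replicate 4. These libraries had mitochondrial shares of 4.41 to 6.75%, and the part of that share was not tested. Scripts were tested on simulated data. RefSeq promoters were read with GRCm38.p6 coordinates. One result of the gene lists is not reported here.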

Additional observations from a re-analysis of the deposited data

Results flagged for a closer look

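In dKD, 1500009L16Rik was at 12.0 CPM in replicate 2 and at 2.83 to 4.29 CPM in the other 3 libraries. The gap to the nearest library was 0.841 of the whole range, above Dixon's 95% critical value for 4 samples. Chance alone puts about 1 in 20 groups past this value, and 12 genes were examined in dKD at both ends. Without this library the log2 fold change of 1500009L16Rik in dKD against Nr5a2 KD was -0.92 in place of -0.21.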

How the results depend on the processing

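The calls of the 10 genes did not change in Klf5 KD against control or for the interaction under any alternative, and in dKD against Nr5a2 KD they changed only with no filter, where 1 gene, Ube2u, was called. The median log2 fold change of the 10 genes in Nr5a2 KD was -2.07 under ERCC scaling, -2.76 with the mitochondrial covariate, -2.75 with total counts and -3.02 to -2.77 with each library left out. In dKD it was -1.84 under ERCC scaling. ERCC scaling moved the median of all genes to 0.82 and 0.84 in these comparisons, and the split of calls lower and higher to 90 and 680 in Nr5a2 KD and 117 and 992 in dKD (529 and 344, and 621 and 415, as reported). With total counts the splits were 399 and 453, and 422 and 572. Without control replicate 1 or 2 the genes called lower numbered 196 and 180 in Nr5a2 KD and 258 and 209 in dKD. Klf5 KD against control gave 41 genes lower and 11 higher by DESeq2, 82 and 46 with no filter, 1 with the mitochondrial covariate, and 0 with ERCC scaling, own groups or the block, against 6, and 0 to 10 with each library left out. dKD against Nr5a2 KD gave 10 lower and 6 higher with no filter, and the interaction 3 and 12.

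Values near 0 turned in sign. In Klf5 KD, 1500009L16Rik was at 0.022 with DESeq2 size factors, 0.023 by DESeq2, 0.58 under ERCC scaling, 0.57 with the mitochondrial covariate, 0.021 with no filter and -0.24 to 0.24 with each library left out. Cmtm7 was at 0.11 under ERCC scaling. 4933430I17Rik was at 0.54 under ERCC scaling, 0.27 with the covariate and -0.45 to 0.27 with each library left out. Nr5a2 was at 0.47, 0.097 and -0.41 to 0.086 in that order. For the interaction, Prl3b1 was at -0.46 under ERCC scaling, -0.38 with the covariate and -0.17 to 0.52 with each library left out, 4933430I17Rik at 0.080 with total counts and -0.50 to 0.31, and 1500009L16Rik at -0.91 to 0.031. In dKD against Nr5a2 KD, values with each library left out ran from -0.92 to 0.011 for 1500009L16Rik, -0.074 to 0.37 for Arhgdig, -0.11 to 0.30 for Rflnb, -0.21 to 0.44 for Pecam1, -0.64 to 0.22 for 4933430I17Rik and -0.27 to 0.060 for Nr5a2. The cause of these changes was not tested.

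With the replicate block the medians of the 10 genes were -2.86 in Nr5a2 KD and -2.48 in dKD, and no call of the 10 changed in the 3 tested comparisons. Genes called fell to 380 lower and 216 higher in Nr5a2 KD and to 357 and 185 in dKD. In Klf5 KD the block put 1500009L16Rik at 0.047 and 4933430I17Rik at 0.11, and Klf5 itself was not called (adjusted p = 0.142 by edgeR). A block over dKD and Nr5a2 KD alone, added after seeing the data, called 0 of 9 genes tested and gave Cmtm7 -0.83 (adjusted p = 0.358 by edgeR). With 2 control libraries, and at most 36 counts of Ube2u in each library with Nr5a2 siRNA, small differences were not detectable at this depth.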
